A study of Mus musculus with 12 samples.

Results

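The genes described here encode the proteins that cut, splice, polyadenylate, unwind and shorten messenger RNA. They were chosen by symbol, from the gene name that the scanner output of the 12 h arrays prints for each probe: every probe other than a control whose name begins with Snrp, Sfrs, Hnrp, Sf3a, Sf3b, U2af, Prpf, Cpsf, Cstf, Pabp, Cnot, Dhx or Exosc, or with Ddx, Lsm, Prp or Rbm and a number. The rule used no measured value and found 96 probes of 70 genes among the 20280 probes tested. For 20 of the genes there was more than 1 probe, 46 probes in all. RNA came from the small intestine of male FVB mice, 6 weeks old, that were fed (0 h) or had been fasted for 12, 24 or 72 h, with 6 mice and 3 arrays per time point. Each array compared 1 pool of 2 mice, labelled with Cy3, with a reference of fed intestines labelled with Cy5, so that every time point, fed included, was measured against fed RNA. The animals were kept in metabolic cages with water, an infrared lamp gave warmth from 24 h on, and RNA was taken from the full thickness of the gut wall. All comparisons with fed share the same 3 fed pools.

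Introns are removed from pre-mRNA by the spliceosome, which assembles from small nuclear ribonucleoproteins (snRNPs). Each snRNP is an RNA wrapped in a ring of Sm or LSm proteins with a few particle-specific subunits: U1 finds the 5′ splice site, U2 with the U2AF dimer finds the branch site and the 3′ splice site. SR proteins and heterogeneous nuclear ribonucleoproteins (hnRNPs) bind the transcript and favour or block the use of nearby sites, and DEAD and DEAH box helicases remodel the RNA at each step. The message is then cut and polyadenylated by the CPSF and CstF complexes, bound by poly(A) binding proteins and, at the end of its life, shortened from its tail by the CCR4-NOT complex. These proteins are made in nearly all cells, with more of them in dividing cells such as those of the intestinal crypts.

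The values are log2(Cy3/Cy5), the log2 ratio of a pool over the fed reference, and a difference is called where the Benjamini-Hochberg adjusted p of limma, taken over all probes, was under 0.05. The dyes were not swapped, and the p-values describe the spread between 3 pools. The reference of fed replicate 3 carries a label that disagrees with its protocol on how many mice it pooled. Arrays of the fed and 72 h groups share a Cy5 signal range, with medians of 124 to 142. Those of 12 and 24 h share another, with 392 to 627. A difference of 12 or 24 h from fed cannot be told apart from this split. In Cy5, 72 h against fed and 24 h against 12 h each lie within 1 range. In Cy3, however, the 12 h arrays had median signals of 231.5 to 295.5 and backgrounds of 69 to 74. The 24 h arrays had 166.5 to 171.5 and 38 to 39, which cannot be told apart from a difference between 12 and 24 h. Of the 96 members, 69 were well above background in Cy3 on all 12 arrays, none was saturated, 13 were not well above background in any fed pool (none of these was called against fed), and 11 lacked a value on 1 or 2 arrays because the spot was marked as an outlier. The array of 12 h replicate 1 had 5.42% of such spots and the others at most 1.22%. Across the members, the correlation between arrays of a group was 0.91 to 0.94 at 72 h, 0.73 to 0.78 at 24 h, 0.53 to 0.80 at 12 h and 0.05 to 0.72 among the fed pools. Since the fed pools were measured against fed RNA, these correlations do not rank the groups by quality.

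Most of these genes were not called at any time. At 12 h, 22 members differed from fed (22.9%, against 10.8% of all probes), of which 15 were lower (6% of all probes) and 7 higher (4.82%). At 24 h, 10 differed (10.4%, against 10.1% of all probes), 8 lower (6.3%) and 2 higher (3.82%), a share close to that of the whole array. At 72 h, 15 differed (15.6%, against 10.6%), 12 lower (5.71%) and 3 higher (4.85%). Lower calls thus outnumbered higher ones at each time, but the direction depended on the channel and the reference: Cy3 alone gave 5 higher and 3 lower at 12 h and 10 of each at 24 h, and the fit against the Cy5 reference gave 14 higher and 12 lower at 24 h. The median member, in the ratio, lay slightly above 0, at 0.06, 0.04 and 0.08 on the log2 scale, where the median of all probes was -0.02, 0.02 and 0.01. In whole tissue, fewer cells that use a gene and less of its RNA per cell cannot be told apart. All called members had groups that did not overlap, and in total 37, 42 and 47 of the 96 members had non-overlapping groups at 12, 24 and 72 h, beside 30.9%, 40.4% and 41.8% of all probes. The split moved with the scaling: at 72 h median centring gave 2 higher and 21 lower and loess 7 higher and 16 lower, and at 24 h loess gave 9 higher and 14 lower. Without 12 h replicate 3, whose group shares the estimate of spread, 25 members were called at 24 h and 24 at 72 h. The F-test over the 3 comparisons called 36 members of 33 genes (24.8% of all probes).

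**Figure D1:**
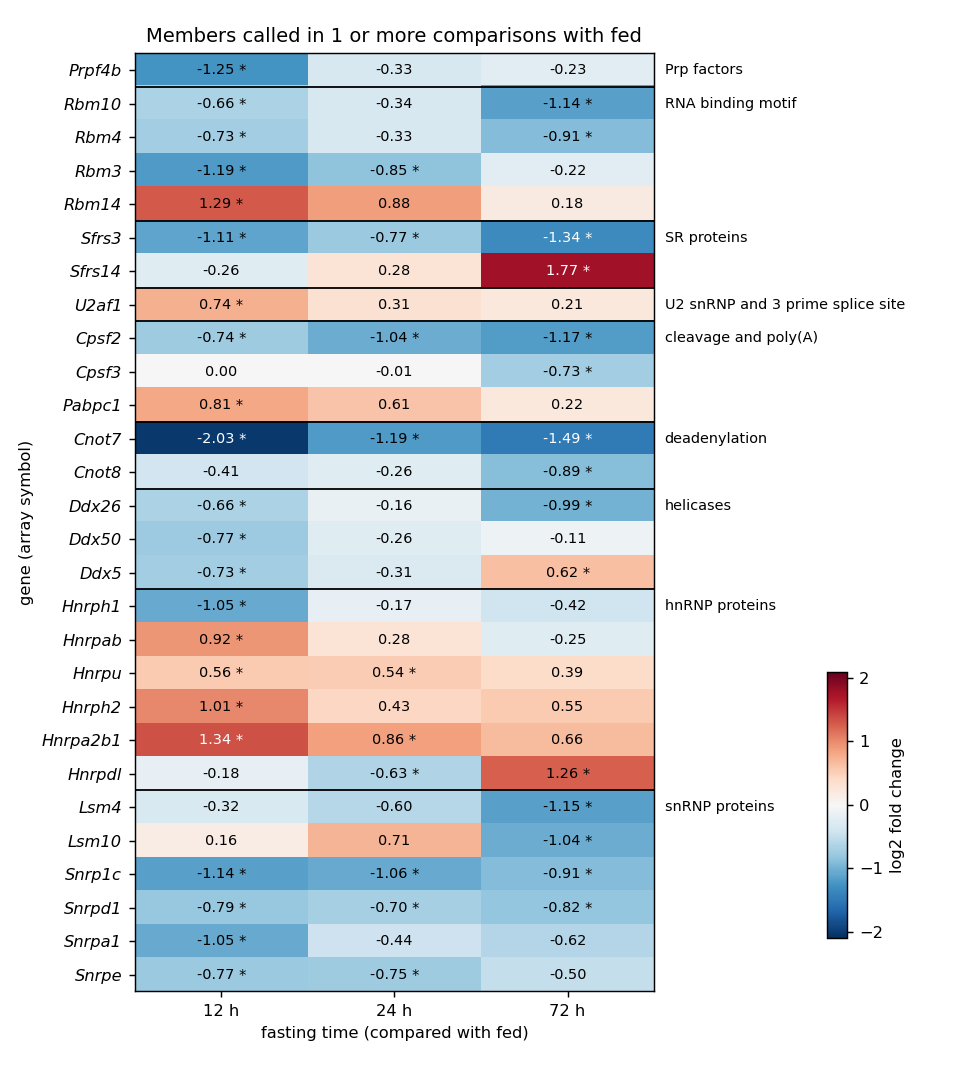
Log2 fold change against the fed pools for the 28 members called in at least 1 of the 3 comparisons, with columns for 12, 24 and 72 h and rows grouped by role; an asterisk marks an adjusted p under 0.05. Sfrs3, Snrp1c, Snrpd1, Cpsf2 and Cnot7 are blue with an asterisk in all 3 columns, and Sfrs14 (1.77) and Hnrpdl (1.26) are the strongest reds at 72 h.

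The members lower at all 3 times were 5 probes (1.1% of all probes were lower at all 3 times): Sfrs3 (now Srsf3), an SR protein that also helps to export mRNA; Snrp1c (Snrpc), the U1 subunit that steadies pairing with the 5′ splice site; Snrpd1, a protein of the Sm ring; Cpsf2, a subunit of the cleavage complex; and Cnot7, a deadenylase of CCR4-NOT. No member was higher at all 3 times, against 0.345% of all probes.

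The windows of 250 bases before the RefSeq start (assembly GRCm38.p6) are printed, 5′ to 3′ on the strand of the gene, for the 3 of these genes that have one in the table and for the pair that rose most at 72 h, so that what lies upstream of members that moved together, or apart, can be read. Capitals mark 5 short motifs on either strand: the CCAAT box, spelled CCAAT, the GC box, spelled GGGCGG, the TATA box, spelled TATAAA, the core of sites for ETS factors, spelled CCGGAAG, and the CRE-type core, spelled TGACG.
Sfrs3 (Srsf3), chr17:29032410-29032659, plus strand: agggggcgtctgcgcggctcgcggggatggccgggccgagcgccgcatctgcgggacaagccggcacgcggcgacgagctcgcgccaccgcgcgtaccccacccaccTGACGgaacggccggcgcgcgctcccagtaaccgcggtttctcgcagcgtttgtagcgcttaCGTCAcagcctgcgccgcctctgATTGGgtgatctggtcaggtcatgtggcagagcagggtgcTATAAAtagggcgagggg
Snrp1c (Snrpc), chr17:27839837-27840086, plus strand: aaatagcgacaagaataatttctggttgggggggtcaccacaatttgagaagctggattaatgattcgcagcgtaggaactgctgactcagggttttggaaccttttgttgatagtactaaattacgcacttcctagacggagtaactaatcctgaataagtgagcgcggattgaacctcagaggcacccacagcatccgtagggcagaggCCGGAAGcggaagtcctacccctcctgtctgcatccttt
Cpsf2, chr12:101975724-101975973, plus strand: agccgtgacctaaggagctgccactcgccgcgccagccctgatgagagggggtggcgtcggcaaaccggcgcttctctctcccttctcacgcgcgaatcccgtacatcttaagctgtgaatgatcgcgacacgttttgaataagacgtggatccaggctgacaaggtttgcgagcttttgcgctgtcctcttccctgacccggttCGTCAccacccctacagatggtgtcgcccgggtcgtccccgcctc
Hnrpdl (Hnrnpdl), chr5:100039223-100039472, minus strand: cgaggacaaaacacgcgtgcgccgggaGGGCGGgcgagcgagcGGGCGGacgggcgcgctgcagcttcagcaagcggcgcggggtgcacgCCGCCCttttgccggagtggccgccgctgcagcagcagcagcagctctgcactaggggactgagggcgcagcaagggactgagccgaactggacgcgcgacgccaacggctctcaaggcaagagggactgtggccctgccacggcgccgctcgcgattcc
Sfrs14 (Sugp2), chr8:70233955-70234204, plus strand: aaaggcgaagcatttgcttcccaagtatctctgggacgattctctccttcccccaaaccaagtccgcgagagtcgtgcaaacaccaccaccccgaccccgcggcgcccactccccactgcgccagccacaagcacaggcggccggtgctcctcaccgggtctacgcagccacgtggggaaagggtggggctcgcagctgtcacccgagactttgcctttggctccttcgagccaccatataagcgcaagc

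The 3 genes that were lower at all times had no motif that all 3 windows held. The Sfrs3 window held a TATA box 18 bases before the start, a CCAAT box and 2 CRE-type cores, whereas the Snrp1c window held an ETS core 39 bases before the start and the Cpsf2 window a CRE-type core 45 bases before it. The Hnrpdl window held 3 GC boxes, and its GC content was 72%, against 48.4% for Snrp1c. None of the motifs was in the Sfrs14 window. In the same table, 58 of the genes had 76 windows, of which 42.1% held TGACG (17.8% of all 32851 windows), 56.6% GGGCGG (32.7%), 46.1% CCAAT (33.8%), 15.8% CCGGAAG (6.91%) and 9.21% TATAAA (12.4%). No 2 of the capital motifs overlapped in the printed windows, and a match is a description of letters, not of binding.

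For Sfrs3, the log2 ratio was 0.18, -0.01 and 0.36 in the fed pools, -0.71 and -1.16 in the 2 pools measured at 12 h, -0.71, -0.66 and -0.43 at 24 h, while the 72 h pools gave -1.29, -1.06 and -1.14. All fasted pools lay below all fed pools, and the 72 h pools lay lower than those of 24 h. It was 2.16-fold lower than fed at 12 h, 1.71-fold lower at 24 h and 2.53-fold lower at 72 h, with log2 changes of -1.11 ± 0.19, -0.77 ± 0.17 and -1.34 ± 0.17 (SE) and adjusted p of 0.00641, 0.0167 and 0.000537 in limma. The call at 24 h was lost without fed replicate 1 (-0.77, adjusted p = 0.0613), fed replicate 3 (-0.68, 0.0562) or 24 h replicate 1 (-0.72, 0.064), and the other calls held whichever array was left out.

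Snrp1c had a nearly level course in the ratio. Its log2 ratio was 0.15, -0.07 and 0.39 in the fed pools, -0.81 and -1.16 in the 2 pools measured at 12 h, -1.09, -0.77 and -0.86 at 24 h, while the 72 h pools gave -0.73, -0.66 and -0.86. All fasted pools lay below all fed pools, and the 3 fasted times overlapped. It was 2.21-fold, 2.09-fold and 1.87-fold lower than fed at 12, 24 and 72 h, with log2 changes of -1.14 ± 0.19, -1.06 ± 0.17 and -0.91 ± 0.17 (SE) and adjusted p of 0.00622, 0.00402 and 0.00502. These calls held without any 1 array. In Cy3 alone the 24 h call was kept, and those at 12 and 72 h were not.

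Cnot7, which with its close relative Cnot8 removes poly(A) tails, had the largest decrease of any member. The log2 ratio was 0.44, 0.53 and -0.37 in the fed pools, -1.75, -1.63 and -2.11 at 12 h, -1.59, -0.40 and -0.99 at 24 h, while the 72 h pools gave -1.22, -1.18 and -1.47. The 12 h and 72 h pools were well apart from fed, but 24 h replicate 2 came close to fed replicate 3. It was 4.09-fold lower at 12 h, 2.29-fold lower at 24 h and 2.81-fold lower at 72 h, with log2 changes of -2.03, -1.19 and -1.49, each ± 0.28 (SE), and adjusted p of 0.0022, 0.0187 and 0.00416. The 24 h call was lost without fed replicate 1 (-1.07, adjusted p = 0.0796), fed replicate 2 (-1.03, 0.073), 24 h replicate 1 (-0.89, 0.0828) or 24 h replicate 3 (-1.19, 0.0535).

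Cpsf2, the inactive partner of the nuclease that cuts pre-mRNA before polyadenylation, was lower with 1 of its 3 probes. The log2 ratio of probe A_65_P06893 was -0.10, -0.41 and -0.05 in the fed pools, -0.51, -0.999 and -1.27 at 12 h, -1.45, -1.13 and -1.10 at 24 h, while the 72 h pools gave -1.30, -1.17 and -1.60. The lowest fed pool stood only just above the highest 12 h pool, and the later pools were clearly lower. Its log2 change was -0.74 ± 0.21, -1.04 ± 0.21 and -1.17 ± 0.21 (SE), with adjusted p of 0.0357, 0.00909 and 0.00254. Probe A_65_P16282 gave 0.09, -0.02 and -0.57 at 12, 24 and 72 h with no call, and the remaining probe, A_65_P18004, was not well above background in any fed pool. The 12 h call of the first probe was lost in 5 of the 12 fits that left out an array, and those at 24 and 72 h were kept in all of them. In Cy3 alone its 12 h change was 0.20, of the opposite sign and not called, while the 24 and 72 h calls were kept.

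**Figure D2:**
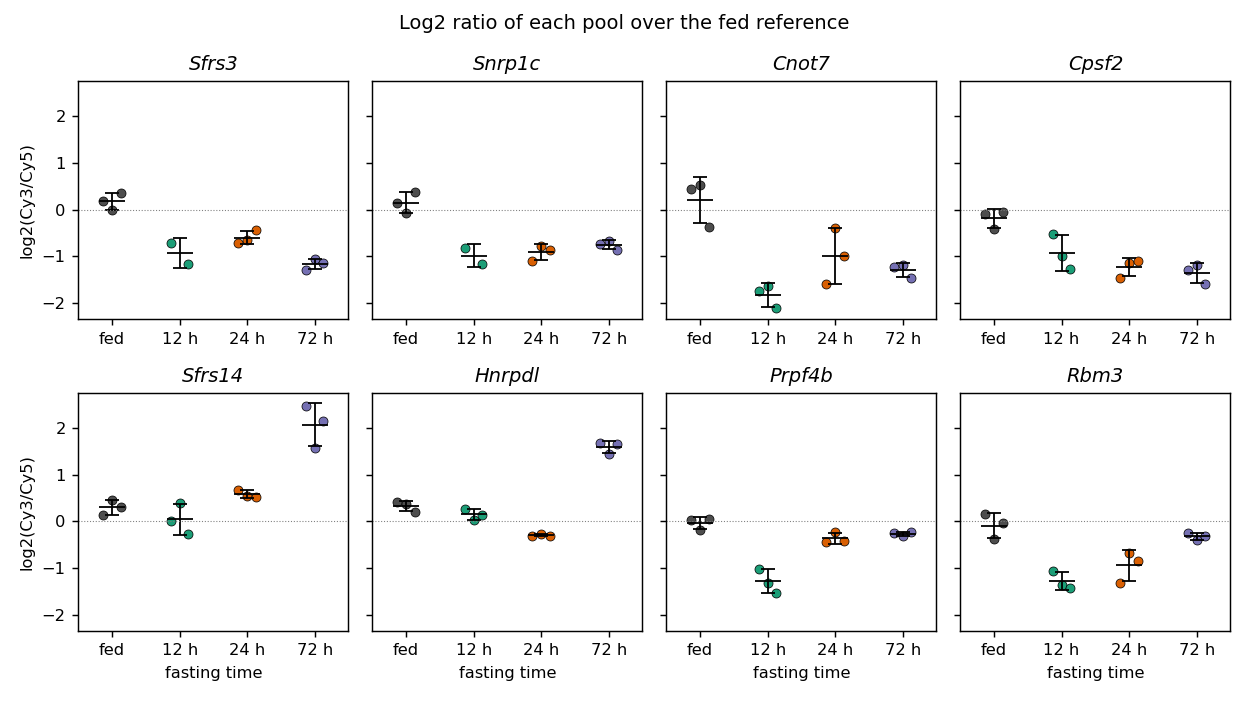
Log2(Cy3/Cy5) of each pool over the fed reference, by fasting time, for 8 members; points are arrays, the long dash is the mean and the whiskers ± 1 SD of 3 pools (2 for Sfrs3 and Snrp1c at 12 h). The upper row falls at 12 h and stays low, whereas Sfrs14 and Hnrpdl are high at 72 h and Prpf4b and Rbm3 are low at 12 h and near the fed pools at 72 h.

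The calls among the snRNP proteins were decreases. Of their 13 probes, 4 were lower at 12 h (30.8%, beside 6% of all probes), 3 at 24 h (23.1%, beside 6.3%) and 4 at 72 h (30.8%, beside 5.71%). None was called higher, where 4.82%, 3.82% and 4.85% of all probes were, shares at which 13 probes would hold few such calls. The median change was -0.25, -0.44 and -0.62 at the 3 times, and at 72 h 12 of the 13 had a negative change. Besides Snrp1c these were mainly proteins of the Sm and LSm rings, described next.

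Snrpd1 was lower at all 3 times in the ratio, and none of these 3 calls was made in Cy3 alone. Its log2 ratio was 0.26, -0.01 and 0.62 in the fed pools, -0.37, -0.42 and -0.72 at 12 h, -0.48, -0.26 and -0.50 at 24 h, while the 72 h pools gave -0.53, -0.37 and -0.69. The fed pools spread widely, and all fasted pools lay below them. The log2 change was -0.79, -0.70 and -0.82, each ± 0.18 (SE), with adjusted p of 0.0172, 0.0274 and 0.0105. Leaving out fed replicate 3, the highest fed pool, ended the calls at 24 h (-0.54, adjusted p = 0.0987) and 72 h (-0.65, 0.053). The 24 h call was also lost without fed replicate 1 (-0.72, 0.0786), 24 h replicate 1 (-0.67, 0.0909) or 24 h replicate 3 (-0.66, 0.0804), and the 12 h call without fed replicate 1 or fed replicate 3.

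Snrpe, another protein of the Sm ring, was lower at 12 h (-0.77, adjusted p = 0.0345) and 24 h (-0.75, 0.0381), and its change of -0.50 at 72 h was not called (0.157). Snrpa1, a U2-specific protein, was lower at 12 h with 1 of its probes (-1.05, adjusted p = 0.0163; 2 pools measured), and the other gave -0.55 (0.127). Both of these genes lost their 12 h call without fed replicate 3 or 12 h replicate 3, and Snrpe also without fed replicate 1 or 12 h replicate 2. The 24 h call of Snrpe was lost in 6 of the 12 fits without an array. In Cy3 alone no call of Snrpe or Snrpa1 was made, and the 12 h change of Snrpe was 0.30, of the opposite sign.

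The LSm proteins fell late. Lsm4, part of the ring on U6 RNA and of a ring that aids mRNA decapping, had log2 ratios of 0.29, 0.09 and 0.82 in the fed pools, 0.35 and -0.20 in the 2 pools measured at 12 h, -0.22, -0.23 and -0.15 at 24 h, while the 72 h pools gave -0.93, -0.63 and -0.67. The 72 h pools lay below all others, 2.21-fold under the fed mean (-1.15 ± 0.21 SE, adjusted p = 0.00358). Lsm10, which belongs to the U7 particle that trims histone mRNA, had -0.09, -0.11 and -0.03 in the fed pools, 0.49, -0.14 and -0.12 at 12 h, 1.12, 0.28 and 0.50 at 24 h, while the 72 h pools gave -1.59, -0.88 and -0.89. It stood highest at 24 h, where its change of 0.71 was not called, and was 2.06-fold lower than fed at 72 h (-1.04 ± 0.25 SE, adjusted p = 0.0152). This call was lost without fed replicate 3 (-1.02, adjusted p = 0.0607) or 72 h replicate 1 (-0.81, 0.0999).

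The remaining snRNP probes were not called at any single time against fed, although the F-test over the 3 comparisons called Snrpa (adjusted p = 0.0281) and Snrpd2 (0.0322). At 72 h Snrpd2, a Sm protein, gave -0.87 (adjusted p = 0.0597), Snrpg, the smallest of the Sm proteins, -0.62 (0.0638), Snrpb -0.44, Snrpa -0.34 and Snrpb2 -0.03. The single positive value was 0.18 for Snrp116 (now Eftud2), the GTPase of the U5 particle.

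**Figure D3:**
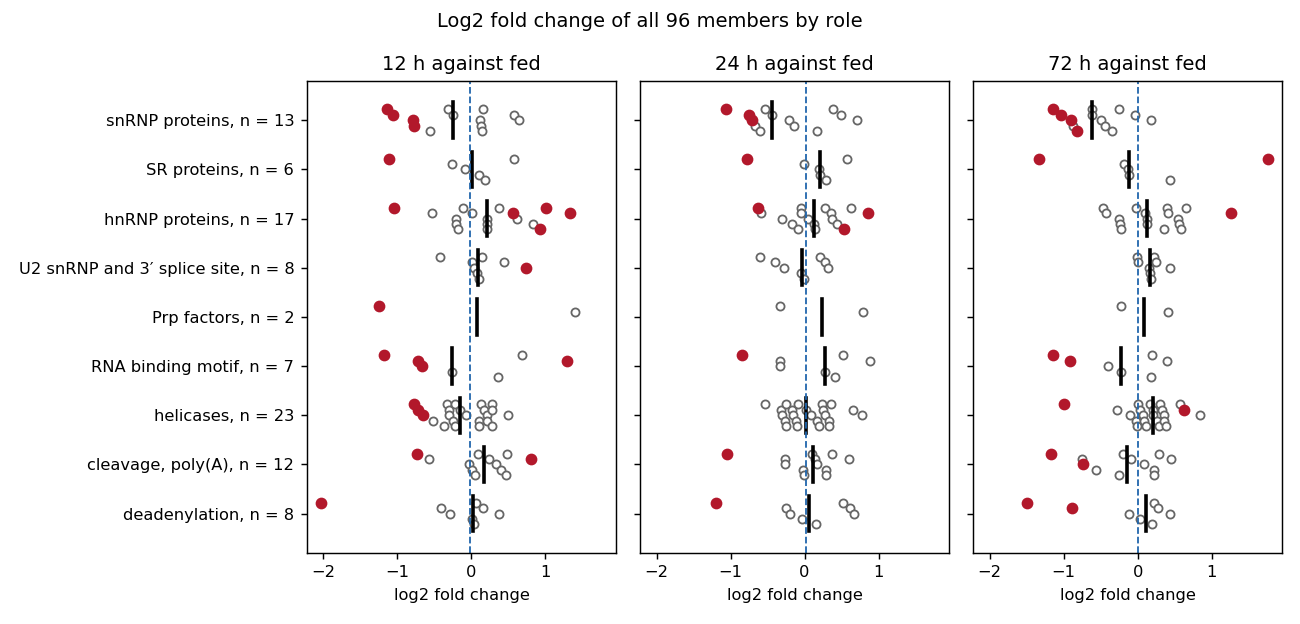
Log2 fold change against fed at 12, 24 and 72 h for all 96 members, grouped by role with the number of probes; red points are called, open points are not, the black bar is the median of the group and the dashed line the median of all probes. Of the 13 snRNP probes, 7, 9 and 12 had a negative change at 12, 24 and 72 h, with a median of -0.62 at 72 h. At 72 h the helicase group had 18 positive and 5 negative changes, and the 3′ splice site group 7 and 1.

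Among the 6 SR protein probes, Sfrs3 was lower at each time and 1 was higher. The shares called were 16.7%, 16.7% and 33.3% at 12, 24 and 72 h, beside 10.8%, 10.1% and 10.6% of all probes. Sfrs14 (now Sugp2), a protein with SR and G-patch features, rose at 72 h only. With probe A_65_P06102 its log2 ratio was 0.14, 0.45 and 0.30 in the fed pools, 0.01, 0.39 and -0.28 at 12 h, 0.68, 0.55 and 0.53 at 24 h, while the 72 h pools gave 2.48, 1.57 and 2.15. The 72 h pools were far above all others, 3.4-fold over the fed mean (1.77 ± 0.22 SE, adjusted p = 0.000381), and the call held whichever array was left out. The other probe, A_65_P20593, was not well above background in any fed pool and was not called against fed. Its ratio changed by 0.58 at 24 h and 0.44 at 72 h. A bound was also taken from Cy3 alone after a separate loess normalization, with the fed pools raised to the lowest detected signal. It was 0.996-fold, 1.43-fold and 1.06-fold of fed at 12, 24 and 72 h, without a test or an error. Of the other 3 SR genes, Sfrs4 (Srsf4) changed by 0.10, 0.21 and -0.18, with no call. Sfrs9 (Srsf9), well above background in 1 fed pool, and Sfrs2 (Srsf2), in none, were not called either.

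Among the 17 hnRNP probes, 4 were higher and 1 lower at 12 h (29.4% called, beside 10.8% of all probes). None of these calls was made with the same sign in Cy3 alone. At 24 h 2 were higher and 1 lower (17.6%, beside 10.1%), and at 72 h 1 was higher (5.88%, beside 10.6%). That one was Hnrpdl (now Hnrnpdl), a protein that binds AU-rich and G-rich RNA. The log2 ratio was 0.42, 0.36 and 0.21 in the fed pools, 0.27, 0.04 and 0.15 at 12 h, -0.32, -0.28 and -0.31 at 24 h, while the 72 h pools gave 1.67, 1.45 and 1.66. The pools of a time point were close together, with 24 h below and 72 h above all fed pools. It was 1.55-fold lower than fed at 24 h (-0.63 ± 0.14 SE, adjusted p = 0.0166) and 2.4-fold higher at 72 h (1.26 ± 0.14 SE, adjusted p = 0.000194). The decrease was not called without fed replicate 1 (-0.59, adjusted p = 0.0721), fed replicate 2 (-0.61, 0.0564) or 24 h replicate 1 (-0.62, 0.0546), whereas the increase held in all 12 such fits.

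The other called hnRNPs changed early. Hnrpa2b1 (Hnrnpa2b1), which binds pre-mRNA and marks RNA for transport, had 0.17, 0.16 and -0.27 in the fed pools, 1.01, 1.37 and 1.70 at 12 h, 0.71, 1.31 and 0.62 at 24 h, while the 72 h pools gave 0.53, 0.79 and 0.72. All fasted pools were above all fed pools, most at 12 h. It was 2.53-fold higher at 12 h (1.34 ± 0.22 SE, adjusted p = 0.00462) and 1.81-fold higher at 24 h (0.86 ± 0.22 SE, 0.0259), and 0.66 at 72 h was not called (0.0706). The 24 h call was lost without any 1 of the fed pools (0.71 to 0.93, adjusted p = 0.0514 to 0.0977) and without 24 h replicate 1 (0.94, 0.0534) or replicate 2 (0.64, 0.0985). Neither the 12 h nor the 24 h call was made in Cy3 alone, where the 24 h change was -0.0028 (adjusted p = 0.992 in limma).

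Hnrph1 (Hnrnph1), which binds G-rich stretches, was lower at 12 h, with -1.26, -0.91 and -0.87 against -0.10, -0.26 and 0.47 in the fed pools (-1.05 ± 0.19 SE, adjusted p = 0.00663), and back to -0.17, -0.01 and -0.22 at 24 h. Its paralogue Hnrph2 (Hnrnph2), with near-identical RNA-binding domains, was higher at 12 h with probe A_65_P20123 (1.01, adjusted p = 0.0338), which was well above background in 1 of the 3 fed pools, and gave -0.20 with A_65_P16240 (0.515). Hnrpab (Hnrnpab) was higher at 12 h with 1 of 3 probes (0.92, adjusted p = 0.0388); another gave -0.21, and the remaining one was not well above background in any fed pool. Hnrpu (Hnrnpu), a scaffold protein of the nucleus, was higher at 12 h (0.56, adjusted p = 0.0337) and 24 h (0.54, 0.0384) with 1 of 3 probes. The calls of Hnrph2, Hnrpab and Hnrpu at 12 h and of Hnrpu at 24 h were each lost in 5 to 10 of the 12 fits without an array, and that of Hnrph1 in none.

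Factors of the 3′ splice site held 1 call in the single comparisons with fed, at 12 h (12.5%, beside 10.8% of all probes). Of the 8 probes of this group, which include those of Sf3b1, Sf3b4, U2af1 and U2af2, U2af1, which reads the AG at the end of the intron, was the one called. Its log2 ratio was -0.36, -0.20 and -0.37 in the fed pools, 0.14, 0.52 and 0.65 at 12 h, 0.02, 0.06 and -0.06 at 24 h, while the 72 h pools gave -0.31, 0.04 and -0.01. All 12 h pools stood above the fed pools (0.74 ± 0.17 SE, adjusted p = 0.0157), with the call lost without fed replicate 1 or fed replicate 3. The larger U2AF subunit, U2af2, changed by 0.03, -0.41 and -0.01, with no call. Sf3b1 probe A_65_P10378 changed by 0.08, -0.60 and 0.15, not called at any single time, while the F-test called it (adjusted p = 0.0386).

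Prpf4b, a kinase that phosphorylates splicing factors, was called at 12 h only. The log2 ratio was 0.02, -0.18 and 0.06 in the fed pools, -1.01, -1.32 and -1.53 at 12 h, -0.44, -0.23 and -0.42 at 24 h, while the 72 h pools gave -0.24, -0.31 and -0.23. All fasted pools lay below all fed pools, those of 12 h by far the most, 2.38-fold under fed (-1.25 ± 0.16 SE, adjusted p = 0.00214), and the call held without any 1 array. Prpf8, the large protein at the heart of the spliceosome, was 2.63-fold, 1.74-fold and 1.33-fold over fed with no call (adjusted p = 0.0731, 0.3 and 0.65), and 12 h replicate 3, at 2.58 beside -0.05 and 0.10, carried its 12 h mean.

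The 7 probes of RNA binding motif proteins held 4 calls at 12 h, 1 at 24 h and 2 at 72 h. As shares these were 57.1%, 14.3% and 28.6%, beside 10.8%, 10.1% and 10.6% of all probes. Rbm3, a cold-inducible protein, had log2 ratios of 0.15, -0.39 and -0.04 in the fed pools, -1.05, -1.36 and -1.42 at 12 h, -1.31, -0.67 and -0.84 at 24 h, while the 72 h pools gave -0.24, -0.39 and -0.31. It was low at 12 and 24 h, and at 72 h it lay at the lower end of the fed pools, with replicate 2 just below the lowest of them. The log2 change was -1.19 ± 0.19 (SE, adjusted p = 0.00462) at 12 h, -0.85 ± 0.19 (0.0168) at 24 h and -0.22 (0.522) at 72 h, and the 24 h call was lost without fed replicate 1 (-0.73, adjusted p = 0.0782), fed replicate 3 (-0.82, 0.0514) or 24 h replicate 1 (-0.66, 0.0744). Neither call was made in Cy3 alone. The 2 low times are those of the higher Cy5 signal range, which cannot be told apart from this course. The lamp warmed the mice from 24 h on, and its part in this course was not tested.

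Rbm10 and Rbm4, both regulators of exon choice, were lower at 12 and 72 h. Rbm10 had 0.11, 0.26 and 0.77 in the fed pools and -0.90, -0.77 and -0.60 at 72 h, without overlap (-1.14 ± 0.20 SE, 2.2-fold, adjusted p = 0.0023). Rbm4 had 0.07, -0.19 and 0.11 in the fed pools and -0.95, -0.94 and -0.87 at 72 h, also without overlap (-0.91 ± 0.18 SE, 1.88-fold, adjusted p = 0.00502). At 12 h the changes were smaller, -0.66 for Rbm10 (adjusted p = 0.0445) and -0.73 for Rbm4 (0.0225), and at 24 h they were -0.34 and -0.33, not called. The 12 h call of Rbm4 was lost without fed replicate 1 or fed replicate 3, and that of Rbm10 in 10 of the 12 fits without an array. In Cy3 alone the 72 h call of Rbm10 was kept, and that of Rbm4 and both 12 h calls were not.

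Rbm14, a coactivator that also affects splicing, went the other way at 12 h. Its log2 ratio was 0.50, 0.88 and 1.69 at 12 h against -0.18, -0.03 and -0.59 in the fed pools (1.29 ± 0.27 SE, 2.44-fold, adjusted p = 0.0123). The call was lost without fed replicate 3. Rbm5, Rbm6 and Rbm12 were not called at any single time against fed, and the F-test over the 3 comparisons called Rbm12 (adjusted p = 0.0359).

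The helicases, grouped by the symbol Ddx, were the largest group, with 23 probes of 15 genes. This group includes Ddx26, an Integrator subunit described below, and its lower calls at 12 and 72 h are counted here. Of the 23 probes, 3 were lower at 12 h, none was called at 24 h, and 1 was lower and 1 higher at 72 h. Their shares called were 13%, 0% and 8.7%, beside 10.8%, 10.1% and 10.6% of all probes. By unadjusted p under 0.05 the number at 24 h was 3, and 7 were called in the Cy3 channel alone. Ddx5, the p68 helicase of splicing and transcription, was called lower at 12 h and higher at 72 h with 1 of its probes. With probe A_65_P07941 its log2 ratio was -0.14 and -0.32 in the 2 fed pools measured, -0.83, -0.97 and -1.07 at 12 h, -0.74, -0.36 and -0.51 at 24 h, while the 72 h pools gave 0.32, 0.44 and 0.43. The 12 h pools were the lowest and the 72 h pools the highest, each apart from fed (-0.73 ± 0.17 SE, adjusted p = 0.022, and 0.62 ± 0.17, 0.0364). Both calls rest on 2 fed pools and were lost without either of them, the 72 h call also without any 1 of its own pools (0.60 to 0.66, adjusted p = 0.089 to 0.102). The 12 h change was 0.0197 in Cy3 alone (adjusted p = 0.963), and the 72 h change was 0.0138 with median centring (0.978) and was not called with plain background subtraction. The second probe gave -0.51, -0.31 and 0.36, not called at any single time, while the F-test called it (adjusted p = 0.031).

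Ddx26 (now Ints6), a subunit of the Integrator complex rather than a helicase of the spliceosome, was lower at 12 h (-0.66, adjusted p = 0.0477) and 72 h. Its log2 ratio with probe A_65_P05382 was 0.00, 0.03 and 0.32 in the fed pools, -0.13, -0.59 and -0.89 at 12 h, -0.10, -0.06 and 0.02 at 24 h, while the 72 h pools gave -1.10, -0.93 and -0.59. The 72 h pools were below the fed pools by 1.99-fold (-0.99 ± 0.20 SE, adjusted p = 0.00564), and the second probe was not well above background in any fed pool. Ddx50, a nucleolar helicase, was lower at 12 h (-0.77 ± 0.17 SE, adjusted p = 0.0138). The 12 h call of Ddx26 was lost in 11 of the 12 fits without an array, and that of Ddx50 without fed replicate 1.

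Ddx6, which holds messages in decapping complexes, had both channels high at 24 h. Its Cy3 signal was higher than fed at 24 h by 3.02 on the log2 scale, but that of the fed reference on the same arrays was higher by 2.25, and the ratio changed by 0.77 (adjusted p = 0.156).

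In the 3′ end group of 12 probes, Cpsf3, the nuclease that makes the cut, was lower at 72 h with 1 of its probes, A_65_P03981. The log2 ratio was -0.10, 0.01 and 0.61 in the fed pools and -0.79, -0.49 and -0.39 at 72 h, groups that lay apart by less than the spread of the fed pools (-0.73 ± 0.21 SE, adjusted p = 0.0431). The call was lost in 8 of the 12 fits without an array, where the change was between -0.51 and -0.82, and the other probe gave -0.19. Pabpc1, the main cytoplasmic poly(A) binding protein, was higher at 12 h, with 0.52, 0.60 and 0.52 against -0.57, -0.51 and 0.30 in the fed pools (0.81 ± 0.22 SE, 1.75-fold, adjusted p = 0.0349), and the call was lost without fed replicate 1 or 2 or without 12 h replicate 2 or 3.

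Of the 8 deadenylase probes, Cnot8 was lower beside Cnot7 at 72 h. With probe A_65_P11861 its log2 ratio was 0.08, -0.10 and 0.08 in the fed pools, -0.30, -0.39 and -0.47 at 12 h, -0.29, -0.11 and -0.31 at 24 h, while the 72 h pools gave -0.88, -0.80 and -0.94. The 72 h pools were tightly grouped below all others (-0.89 ± 0.14 SE, 1.85-fold, adjusted p = 0.00156), and the second probe was not well above background in any fed pool. The scaffold and ligase subunits Cnot2 and Cnot4 had 5 probes with no call at any single time against fed.

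The tests between fasting times also called several of these members. The comparisons of 72 h with 12 and 24 h cross the split in Cy5 signal range, which cannot be told apart from fasting time. Between 12 and 24 h, 4 members differed (4.17%, against 2.9% of all probes), 3 higher (1.23% of all probes) and 1 lower (1.67%). None of these 4 calls was made with the same sign in Cy3 alone, and in all 4 Cy5 changed more than Cy3. Prpf4b (0.92, adjusted p = 0.00854) and Hnrph1 (0.88, 0.0249) were among those higher at 24 h, and Hnrpab was lower with probe A_65_P20212 (-0.95, 0.0144), which was not well above background in any fed pool. Between 24 and 72 h, 12 differed (12.5%, against 10.5%), 6 higher (5.88% of all probes) and 6 lower (4.67%). Hnrpdl led, 3.71-fold higher at 72 h (1.89 ± 0.14 SE, adjusted p = 1.83e-05), with Sfrs14 (1.48, 0.00157), Ddx5 (0.94, 0.00337) and 2 probes of Sf3b1 (0.75, 0.0295, and 0.71, 0.037). Lsm10 fell most, 3.37-fold (-1.75 ± 0.25 SE, adjusted p = 0.00125), followed by Ddx26, Rbm12, Rbm10, Cnot8 and 1 probe of Hnrpu with -0.83 to -0.59. Between 12 and 72 h, 23 differed (24%, against 10.6%), 12 higher (5.82%) and 11 lower (4.75%) at 72 h, among them both probes of Ddx5 (1.35 and 0.87) and both of Cpsf3 (-0.74 and -0.68); median centring gave 7 higher and 2 lower. In Cy3 alone, 6 of the 12 calls between 24 and 72 h and 8 of the 23 between 12 and 72 h were made with the same sign. The Cy5 channel called 15 and 13 members in these 2 comparisons. Leaving out 12 h replicate 1 gave 10 calls between 12 and 24 h, and leaving out 72 h replicate 1 gave 4 between 24 and 72 h and 5 between 12 and 72 h. The groups did not overlap for 35, 48 and 38 members between 12 and 24, 24 and 72, and 12 and 72 h, beside 23.5%, 41.8% and 31.8% of all probes.

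Probes of one gene often did not move together. Of the 20 genes with more than 1 probe, 7 had a called probe at 12 h, 2 at 24 h and 6 at 72 h, and in none of these were all probes called. The probes had opposite signs for 14, 11 and 8 of the genes at 12, 24 and 72 h, and the range between the probes of a gene had a median of 0.49, 0.34 and 0.35. The count was repeated without dim probes, over the probes well above background in Cy3 on all arrays of both groups. This restriction was chosen after seeing the data. It left 10 genes with more than 1 probe at each time. Of these genes, 5, 2 and 3 had a called probe, none had all probes called, and 5, 4 and 2 had opposite signs. The range had a median of 0.52, 0.28 and 0.30 and was at most 1.36, 1.02 and 0.63. At 12 h the median range was thus not smaller than over all probes. Which transcripts each probe reports was not tested.

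**Figure D4:**
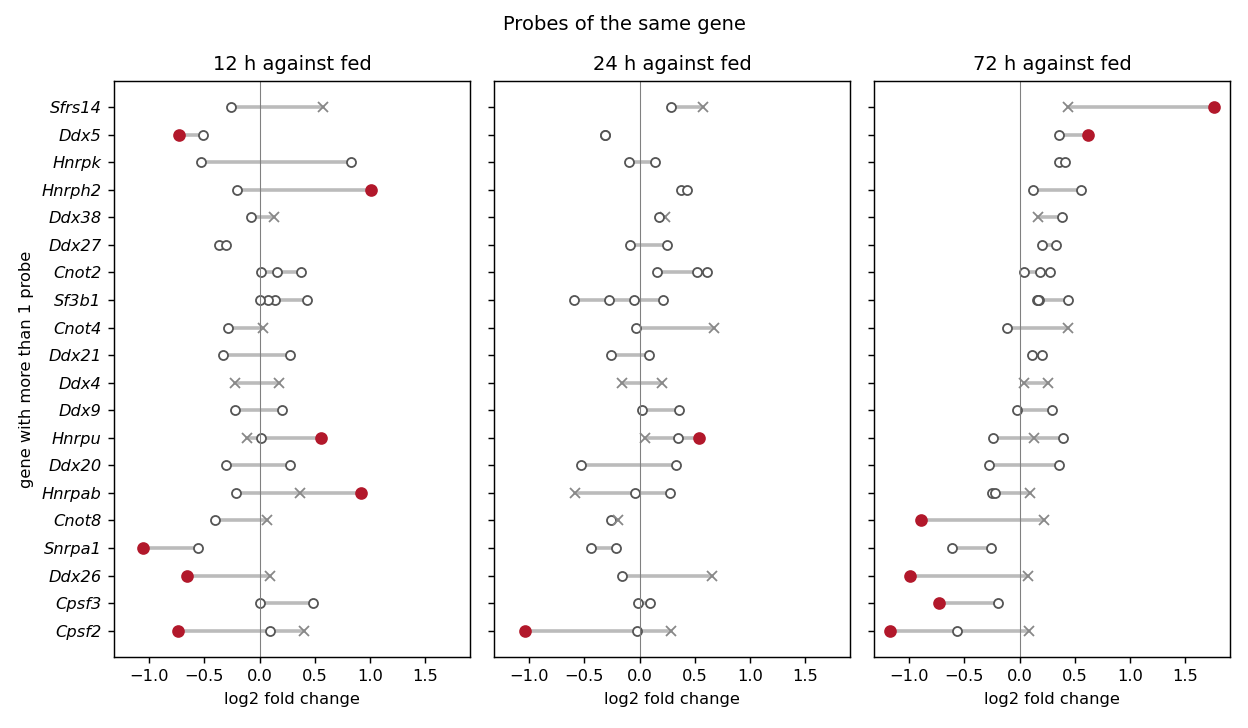
Log2 fold change against fed for each probe of the 20 genes with more than 1 probe, at 12, 24 and 72 h; a grey bar joins the probes of a gene, red points are called, open points are not, and crosses are probes not well above background in any fed pool, whose place is uncertain. No gene has all of its points red, and at 72 h the wide bars of Sfrs14, Cnot8, Ddx26 and Cpsf2 all end on a cross.

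The channel behind the ratio differed between the time points. Since Cy5 always held fed RNA, its signal was tested as a negative control. The F-test called 33 members in Cy5 (28.6% of all probes), 17 of them also called in the ratio. Of the 22 calls at 12 h, 17 had a larger change in Cy5 than in Cy3, and 1, Rbm14, was also called in Cy3 alone. Of the 10 calls at 24 h, 3 had a larger change in Cy5 and 4 were called in Cy3 alone: Snrp1c, Sfrs3, Cpsf2 and Hnrpdl. Of the 15 calls at 72 h, none had a larger change in Cy5, no member was called in Cy5, and 11 were called in Cy3 alone with the same sign (8.44% of all probes were called in Cy3 alone at 72 h, 24.6% at 24 h and 14.8% at 12 h). For Sfrs3 the change of -1.34 at 72 h was made of -1.17 in Cy3 and 0.17 in Cy5, while that of -1.11 at 12 h was made of -0.30 in Cy3 and 0.81 in Cy5. For Cnot7 at 12 h the Cy3 signal changed by -0.86 (adjusted p = 0.0697) and the Cy5 signal by 1.18 (0.00175).

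**Figure D5:**
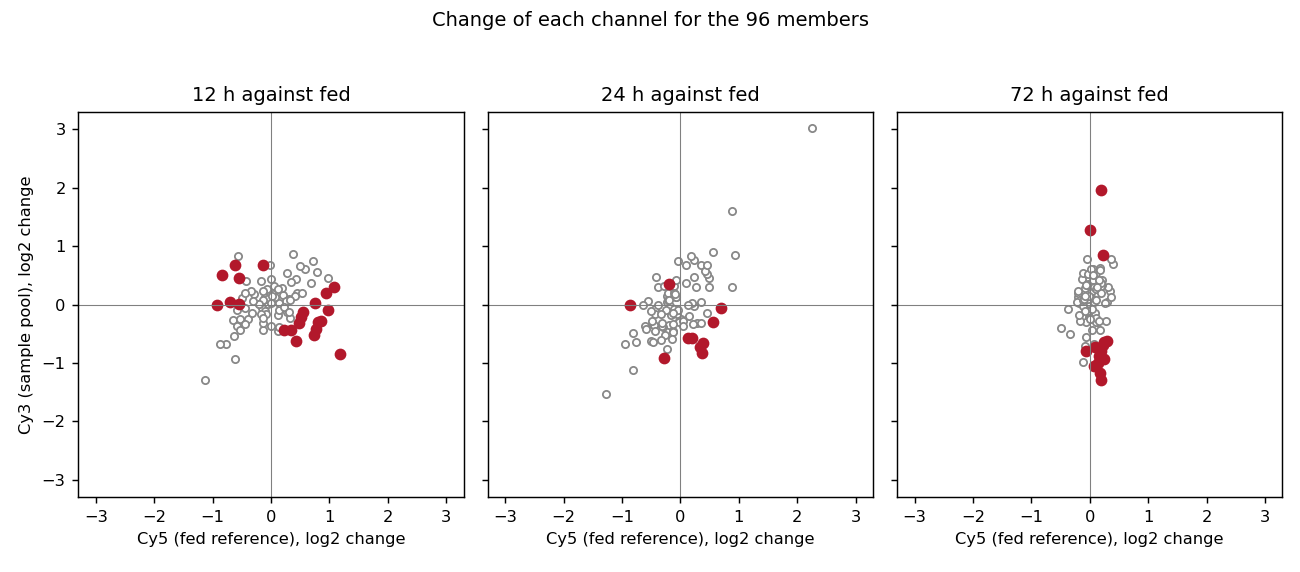
Log2 change of the Cy5 signal (fed reference, x axis) against that of the Cy3 signal (sample pool, y axis) for the 96 members at 12, 24 and 72 h against fed; red points are called in the ratio. At 72 h the red points stretch along the Cy3 axis, and at 12 h they spread along the Cy5 axis as well.

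The calls also differed in how far they depended on the set of arrays. When the 12 h and fed arrays were fitted alone, limma called no member and 0.00986% of all probes, while 29 members had an unadjusted p under 0.05; the fit of all arrays called 14 from the deposited log ratios and 8 in Cy3 alone. The same restriction gave 19 calls at 24 h and 25 at 72 h. At 12 h, 7 of the 22 calls held whichever array was left out (Cnot7, Hnrpa2b1, Hnrph1, Prpf4b, Rbm3, Sfrs3 and Snrp1c), with 9 calls in all without fed replicate 1 and 10 without fed replicate 3. At 24 h, 2 of 10 held (Snrp1c and Cpsf2), with 2 calls without fed replicate 1. At 72 h, 11 of 15 held, and 9 were kept under every one of the 25 settings tried: Cnot7, Cnot8, Cpsf2, Ddx26, Hnrpdl, Lsm4, Rbm10, Sfrs14 and Sfrs3.

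Of the other genes of splicing, export and decay, some rose and some fell. Of a list of 108 symbols outside the rule, 53 were found, each read by its probe with the highest mean Cy3 intensity. At 12 h 8 were called (15.1%, beside 10.8% of all probes), 3 higher (4.82% of all probes) and 5 lower (6%). At 24 h 5 were called (9.43%, beside 10.1%), all lower (6.3%), a share close to that of the whole array. At 72 h 10 were called (18.9%, beside 10.6%), 6 higher (4.85%) and 4 lower (5.71%). Over the alternatives the counts ranged from 0 to 13, 2 to 9 and 3 to 24. At 72 h the largest rises were those of Rnpc2, an SR-related coactivator (1.64 ± 0.19 SE, 3.12-fold, adjusted p = 0.000317), Bat1a, the helicase that loads the export machinery (1.58 ± 0.24, 2.98-fold, 0.00118), and Cirbp, the other cold-inducible RNA-binding protein (1.46 ± 0.17, 2.76-fold, 0.000282). Cirbp was lower at 24 h (-1.08 ± 0.17 SE, adjusted p = 0.00323) and so rose 5.83-fold between 24 and 72 h (2.54 ± 0.17, 8.93e-06). Xrn2, the nuclear exonuclease that ends transcription, and Ptbp1, which represses exons, were also higher at 72 h (0.65, adjusted p = 0.0261, and 0.68, 0.0293), and Gemin5, Plrg1, Clk3 and Tardbp were lower, by -0.67 to -0.59. At 12 h Tia1 (-0.89), Papola (-0.89), Dnajc8 (-0.87), Matr3 (-0.73) and Clk4 (-0.66) were lower and Ncl (0.98), Ptbp1 (0.90) and Srrm1 (0.84) higher.

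Markers of the cells in the gut wall moved over the same times, and their part in these results was not tested. Of 13 genes of dividing crypt cells, 1 was lower at 12 h, 2 at 24 h and 4 at 72 h (Pcna -1.01, Cdc2a -0.98, Tk1 -0.96 and Ccnb2 -0.89), the summed Cy3 signal of the list was 3620 to 5210 in the fed, 2820 to 4370 in the 12 h, 3110 to 3480 in the 24 h and 2740 to 2970 in the 72 h pools, and its median log2 ratio was -0.09 to 0.24 in the fed and -0.57 to -0.41 in the 72 h pools. At 72 h 2 of 3 genes of B and plasma cells were lower, Igh-6 (-0.99) and Igj (-3.19), with a summed Cy3 signal of 2510 to 4050 in the fed and 553 to 694 in the 72 h pools, and so was Agr2 of goblet cells (-1.43), the single goblet gene found. Of 7 smooth muscle genes 4, 2 and 2 were higher at 12, 24 and 72 h, of 4 enterocyte genes Anpep was higher at 12 h (3.44), of 2 Paneth cell genes Mmp7 was higher at 12 h (2.02), and none of 3 T cell genes was called, nor was Cpa1 of the exocrine pancreas. All marker genes found were well above background on 11 or 12 arrays.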

How the data were processed

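The deposited scanner output of each array (Agilent Feature Extraction 6.1.1, per the file headers) holds the intensity of every spot in both dyes, and the authors' value table holds log10 ratios of Cy3 over Cy5. The table served as an alternative; 1655 of its cells had a misplaced decimal that the scanner output allowed to be restored, and 279 were left out. The build behind the array's annotation was not given in the sources used here, so the only coordinates are those of the promoter windows, from the RefSeq table below.

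Median intensities were background-corrected (normexp, offset 50), quantile-normalized over the 24 channels and averaged per probe after leaving out 1075 control spots, 91 unnamed or retired spots and outlier spots. Log2 ratios of the 12 arrays were fitted to 4 group means in limma 3.58.1 (R 4.3.3), with Benjamini-Hochberg adjustment over all probes. The fit was tested on simulated data. The number of arrays limits the precision. Groups came from the labels. Members, role groups, marker lists and the list of other RNA-processing genes were chosen with earlier results of these data known. Named were the called members with non-overlapping groups, the brightest member of each role group, further probes of these genes, and up to 5 members each way with the smallest adjusted p between fasting times. The values of 1 member are not reported here. Symbols are those of the array, with the current RefSeq symbol in brackets at the first mention where it differs. Promoter windows came from a RefSeq table (GRCm38.p6). Alternatives covered background correction, normalization, the filter on dim probes, saturated spots, single channels, the reference, variance moderation, the study's thresholds, the arrays fitted, the replicate number as a block and each array left out.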

Additional observations from a re-analysis of the deposited data

Results flagged for a closer look

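The following effects of fasting differed between fasting times by the direct comparison in limma (adjusted p under 0.05), 37 differences in 29 members. From 12 to 24 h, Prpf4b (0.92) and Hnrph1 (0.88) rose and Hnrpab probe A_65_P20212 (-0.95) fell, on the log2 scale.

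From 24 to 72 h, the log2 difference was positive for Hnrpdl (1.89), Sfrs14 probe A_65_P06102 (1.48), Ddx5 probe A_65_P07941 (0.94), Sf3b1 probes A_65_P10378 (0.75) and A_65_P06077 (0.71) and Hnrpab probe A_65_P20212 (0.68). It was negative for Lsm10 (-1.75), Ddx26 probe A_65_P05382 (-0.83), Rbm12 (-0.81), Rbm10 (-0.80), Cnot8 probe A_65_P11861 (-0.63) and Hnrpu probe A_65_P07769 (-0.59).

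Between 12 and 72 h, the log2 difference was positive for Sfrs14 probe A_65_P06102 (2.03), Hnrpdl (1.44), Ddx5 probes A_65_P07941 (1.35) and A_65_P12873 (0.87), Prpf4b (1.02), Rbm3 (0.96), Hnrpk probe A_65_P12101 (0.94), Ddx50 (0.66), Hnrph1 (0.63), Ddx21 probe A_65_P05974 (0.54) and Ddx9 probe A_65_P06796 (0.51). It was negative for Lsm10 (-1.20), Hnrpab probe A_65_P05514 (-1.17), Rbm14 (-1.10), Snrpd2 (-1.01), Snrpa (-0.91), Lsm4 (-0.82), Cpsf3 probes A_65_P03981 (-0.74) and A_65_P03048 (-0.68), Hnrpc (-0.68), Cpsf2 probe A_65_P16282 (-0.66) and Cnot8 probe A_65_P11861 (-0.49). The arrays of 12 and 72 h, and of 24 and 72 h, differ in Cy5 signal range, and those of 12 and 24 h in Cy3 signal. These differences cannot be told apart from fasting time here.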

How the results depend on the processing

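Of the calls against fed, 0 of 22 at 12 h, 2 of 10 at 24 h and 9 of 15 at 72 h were kept under all 25 alternatives. The number of members called at 12, 24 and 72 h was 8, 20 and 16 in Cy3 alone, 36, 26 and 35 against the Cy5 reference, 22, 23 and 23 with loess, 26, 17 and 23 with median centring and 0, 19 and 25 when only the groups compared were fitted. At 12 h it was 14 from the deposited ratios and 14 without variance moderation. Between 12 and 24 h it was 2 with loess, 1 with median centring, 11 at the study's thresholds, and 0 from the deposited ratios (19 by unadjusted p under 0.05) or when only these groups were fitted in limma (15). Between 24 and 72 h it was 20 in Cy3 alone, 22 with loess, 6 without moderation, 27 with only these groups and 19 at the study's thresholds. Between 12 and 72 h it was 9 with median centring, 12 without moderation and 7 with only these groups.

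Leaving out 1 array gave 9 to 31 calls at 12 h, 2 to 25 at 24 h, 12 to 24 at 72 h, 1 to 10 between 12 and 24 h, 4 to 24 between 24 and 72 h and 5 to 28 between 12 and 72 h. In Cy3 alone the sign turned, with no call, for Cpsf2 (0.20), Ddx5 (0.0197), Hnrpab (-0.0101) and Snrpe (0.30) at 12 h and for Hnrpa2b1 (-0.0028) at 24 h. The replicate number as a block gave 14 calls at 12 h; pools of the same number shared no mice, and their deviations correlated at -0.302 to 0.127 over 18 pairs. With the block, the counts were 8 at 24 h and 14 at 72 h. The cause of these changes was not tested. The median change of the members ranged from -0.12 to 0.10 at 12 h, -0.10 to 0.14 at 24 h and -0.03 to 0.16 at 72 h over the alternatives. Cy5 signals were near background, with array medians of 1.65 to 2.11 times it.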
